A study of Homo sapiens with 6 samples.

Results

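The mitochondrial protein import machinery was followed through 36 genes of the 15024 in the deposited table. They were taken by symbol: every TIMM and TOMM gene with a number, and 12 further genes of the outer membrane sorting complex, the import motor, the disulfide relay and the presequence peptidase (SAMM50, MTX1, MTX2, PAM16, DNAJC19, GRPEL1, HSPA9, CHCHD4, GFER, PMPCA and PMPCB, with TIMMDC1). All 12 had a row, and all 36 genes passed the filter on low values, 10 or more in 3 or more libraries. RNA sequencing had been done on 6 libraries of MDA-MB-231, an established cell line from a human triple-negative breast tumour, all of them null for MLL3 (the histone methyltransferase KMT2C) and all kept for 14 days in 10 µM forskolin, which activates adenylyl cyclase and so protein kinase A. Cells positive for CD44 had been sorted by their surface level of CD104, which is integrin beta-4 and is encoded by ITGB4. The sort gave a CD104high population (n = 3) and a CD104-/low population, written here as CD104low (n = 3). The design text calls CD104high cells hybrid epithelial and mesenchymal, and CD104low cells mesenchymal. The labels call the samples biological replicates and name no culture or day. P-values therefore measure the spread between these samples, which may be technical. Whether the null line was 1 clone is not stated, and wild-type or untreated cells were not analysed here.

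Most mitochondrial proteins are made in the cytosol and enter through the TOM complex of the outer membrane. From there, barrel proteins pass to the SAM complex, carriers pass with small TIM chaperones to the TIM22 complex, and small cysteine-rich proteins are trapped by the disulfide relay. Proteins with a presequence pass through the TIM23 channel, are pulled in by a motor built around a mitochondrial HSP70, and lose the presequence to a peptidase.

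ITGB4 had scaled read counts of 14508 to 19435 in CD104high and 1333 to 2273 in CD104low, with no overlap, the direction in which the cells were sorted. KMT2C still gave reads in every library, which does not check the null state, since a null gene can still yield reads. Its values were 3561 to 3952 in CD104high and 2095 to 2814 in CD104low, without overlap. It was thus higher in CD104high, by 0.62 on the log2 scale (limma adjusted p = 0.0027). CD44, VIM and KRT18 were abundant in every library, ERBB2 had 6219 to 8564, and ESR1 and PGR had no row. KRT18 and ERBB2 were higher in CD104high, by 0.34 and 0.33 on the log2 scale (limma adjusted p = 0.012 and 0.0062). CD44 and VIM did not pass. Of 7 leukocyte markers 2, LAPTM5 and CD14, had rows, and both rose in CD104high. Their summed level was 679 to 936 in CD104high and 320 to 404 in CD104low. Their part in the results below was not tested. In bulk libraries fewer cells of a type and less RNA per cell cannot be told apart.

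All 36 import genes had a lower mean in CD104high than in CD104low on the log2(value + 1) scale, as 48.3% of all genes tested did. Limma, fitted over 14420 genes with Benjamini-Hochberg adjustment, called 26 of the 36 lower and 0 higher at an adjusted p under 0.05, against 21.6% of all genes called lower. The adjusted p of the 26 lay between 0.000212 and 0.0302. In 29 of the 36 every CD104high library lay below every CD104low library, against 26.9% of all genes tested. The median log2 fold change was -0.48, beside 0.02 over all genes. A fall past the threshold of at least 0.5 on the log2 scale was seen in 16 members, against 8.41% of all genes. In the authors' deposited table, 26 members were also lower at an adjusted p under 0.05 and 0 higher, and all 26 were those called here. Without replicate 1 of CD104low the number of all genes called lower was 2009 in place of 3117, and that of members 23.

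Together the 36 genes took 0.256% to 0.257% of the table's scaled reads in the 3 CD104high libraries and 0.337% to 0.36% in the 3 CD104low libraries. The summed level was 136288, 135594 and 140645 in replicates 1 to 3 of CD104high. It was 199168, 179804 and 198281 in replicates 1 to 3 of CD104low. The CD104high sums thus lay close together and below all CD104low sums, and replicate 2 of CD104low was the lowest of its population. By role, the change of the mean sum ran from -41.5% for the small TIM chaperones and -40% for the disulfide relay to -13.3% for the presequence peptidase and -5.22% for TIMMDC1, a complex I assembly factor taken in by its name. The motor stood at -33%, the TIM23 channel at -28.3% and the TOM complex at -26%. Such sums mostly follow their most abundant genes. In CD104low, HSPA9 gave 33958 of the motor's mean sum of 46045.

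**Figure D1:**
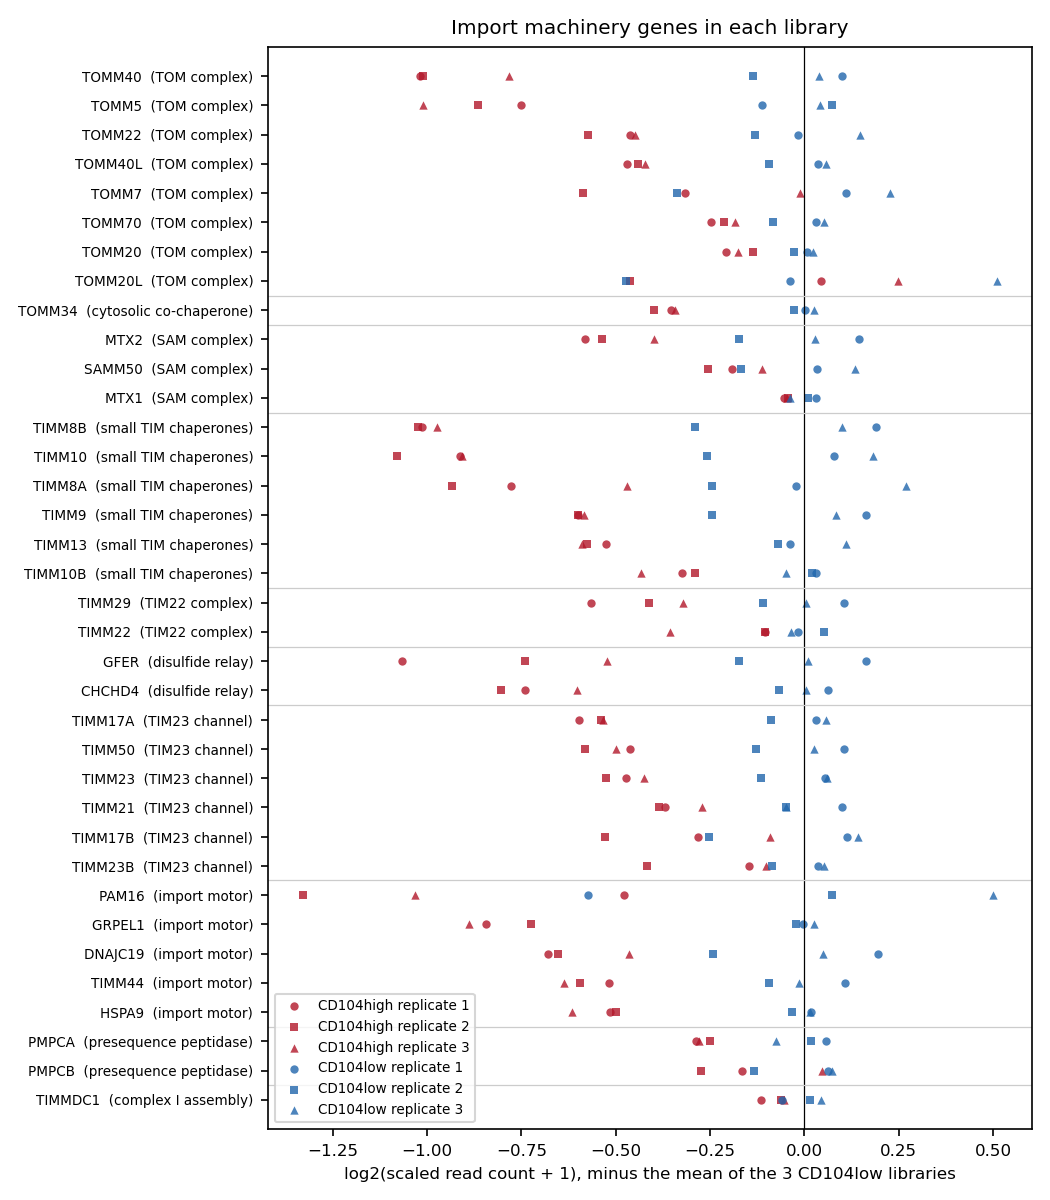
Each point is 1 library's log2(scaled read count + 1) for 1 import gene, minus the mean of the 3 CD104low libraries, with genes grouped by role. CD104high points (red) lie below all CD104low points (blue) in 29 of 36 genes, and replicate 2 of CD104low (blue squares) is the lowest CD104low library in 28 of 36.

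Replicate 2 of CD104low was the lowest of its population in 28 of the 36 members (77.8%), and in 43% of all genes tested. Leaving it out gave 29 members called lower and a median of -0.55. Spread within a population was small for these genes, with a median coefficient of variation of 5.02% in CD104high and 6.92% in CD104low. Over all genes, which were not matched to the members for level, it was 8.74% and 8.87%.

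The promoters of members that moved together were set out to show which known motifs they hold. RefSeq promoters on GRCh38.p14, from 250 bases before to 50 after the start, were found for 33 of the 36 members. These 33 had 36 entries, and only the first listed of each gene was used, as for all genes tested. GRPEL1, TIMM8B and TOMM5 had no entry. The motifs searched on both strands were CACGTG, the E-box bound by MYC and MAX, TGCGCA, the core of the NRF1 site, and CCGGAAG, a core of ETS sites such as that of GABPA. No matches overlapped in the members' promoters. Below, capitals mark the matches in TIMM10, CHCHD4 and HSPA9, which hold matches and were among the members with the smallest p. They also mark those in TOMM20, which holds all 3 motifs and had the smallest fall past the threshold. The promoters of TOMM40, TIMM17A, TIMM44 and TIMM50, also among the members with the smallest p, hold none of the 3 motifs. Those of TIMM13, TIMM23 and TOMM34, likewise among them, hold an ETS core and are not shown.
TIMM10 (chr11:57530705-57531004, minus strand): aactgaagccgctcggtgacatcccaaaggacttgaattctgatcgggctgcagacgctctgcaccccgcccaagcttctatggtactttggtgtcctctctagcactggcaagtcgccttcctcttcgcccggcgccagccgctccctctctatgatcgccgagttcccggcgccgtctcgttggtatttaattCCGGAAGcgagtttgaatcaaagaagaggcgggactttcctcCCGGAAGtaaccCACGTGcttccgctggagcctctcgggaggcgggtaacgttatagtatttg
CHCHD4 (chr3:14124821-14125120, minus strand): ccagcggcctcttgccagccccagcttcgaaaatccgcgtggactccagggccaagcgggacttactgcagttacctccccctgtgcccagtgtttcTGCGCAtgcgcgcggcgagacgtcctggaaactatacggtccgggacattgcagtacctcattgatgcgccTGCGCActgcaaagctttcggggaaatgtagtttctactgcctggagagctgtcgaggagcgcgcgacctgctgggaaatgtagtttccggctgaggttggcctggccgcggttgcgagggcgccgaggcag
HSPA9 (chr5:138575352-138575651, minus strand): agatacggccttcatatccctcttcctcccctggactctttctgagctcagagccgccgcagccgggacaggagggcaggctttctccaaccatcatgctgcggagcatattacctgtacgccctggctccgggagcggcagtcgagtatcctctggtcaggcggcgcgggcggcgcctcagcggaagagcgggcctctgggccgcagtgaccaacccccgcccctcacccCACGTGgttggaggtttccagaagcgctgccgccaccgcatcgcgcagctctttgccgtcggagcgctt
TOMM20 (chr1:235128788-235129087, minus strand): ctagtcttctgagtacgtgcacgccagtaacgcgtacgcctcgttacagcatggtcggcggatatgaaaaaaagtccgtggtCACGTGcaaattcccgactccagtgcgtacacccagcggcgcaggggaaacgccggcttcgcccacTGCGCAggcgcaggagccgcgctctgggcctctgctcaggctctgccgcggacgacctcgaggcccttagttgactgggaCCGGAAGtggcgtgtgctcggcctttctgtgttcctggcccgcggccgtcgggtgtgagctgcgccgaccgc
Distances here are to the first base of each match as printed. The TIMM10 promoter holds 2 ETS matches, 55 and 13 bases before the start. Its E-box begins 1 base before the start and runs across it. CHCHD4 has 2 NRF1 matches, 153 and 82 bases before the start, and HSPA9 an E-box 19 bases before it. In TOMM20 the E-box stands 168, the NRF1 match 102 and the ETS match 22 bases before the start.

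Across the 33 promoters the ETS core was present in 13 (39.4%), beside 18.6% of the 11154 promoters of genes tested. The NRF1 core was present in 8 (24.2%), beside 13.4%, and the E-box in 4 (12.1%), beside 9.8%. Median GC content was 65% in both sets. The 4 members with an E-box, HSPA9, TIMM10, TIMM8A and TOMM20, all fell, as did 10 of the 13 with an ETS core and 3 of the 8 with the NRF1 core. Of all 33 members with a promoter 23 fell, beside 21.6% of all genes tested. Falls among all genes with each motif were not counted. The NRF1 core was in 13% of members that fell and in 50% of those not past the threshold. These shares were 43.5% and 30% for the ETS core, and 17.4% and 0% for the E-box. Another form of the NRF1 site (GCGCA and GCGC with any 1 base between them), which need not hold TGCGCA, was in 7 members, of which 5 fell, and in 11.2% of promoters of genes tested. The median log2 fold change was -0.37 with an ETS core and -0.53 without, -0.25 with the NRF1 core and -0.49 without, and -0.64 with an E-box and -0.43 without. In direction these differences were mixed. Matches are letters in a window, not sites shown to be bound.

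The TOM complex had 8 members in the table, of which 6 fell, beside 21.6% of all genes tested. TOMM40 (GRCh38 chromosome 19, 44890569 to 44903689) encodes the barrel that forms the pore. It had scaled read counts of 10187, 10256 and 12006 in CD104high and 22106, 18774 and 21219 in CD104low. All CD104high libraries were far below the lowest CD104low library, and the fall was 1.92-fold (log2 fold change -0.94, SE 0.09, limma adjusted p = 0.000275). TOMM40L, a second gene of the same family, read 852, 870 and 882 against 1212, 1107 and 1230. The populations did not overlap, and TOMM40L fell by 0.44 on the log2 scale, less than TOMM40 (SE 0.08, limma adjusted p = 0.00339).

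TOMM22 encodes the central receptor that also organises the complex, and it fell by 0.49 on the log2 scale. TOMM5, a small subunit beside the pore, fell by 0.88 from a low level of 251 ± 16.8 to 136 ± 12.3 (SD, n = 3 each). The outer receptors changed little. TOMM70, the receptor for carriers and chaperone-bound proteins, fell by 0.21, and TOMM20, the presequence receptor, fell by 0.17. TOMM20 read 19674, 20658 and 20124 in CD104high and 22812, 22288 and 23062 in CD104low. Its populations were apart but close, and the limma adjusted p of 0.0302 rose to between 0.055 and 0.115 without replicate 1 or 2 of CD104high or replicate 1 or 3 of CD104low. TOMM70 likewise lay at 0.0551 to 0.0814 without those libraries.

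With a correction for transcript length and GC content TOMM20 was at -0.03 (limma adjusted p = 0.649). TOMM7, a small subunit that steadies the complex, was at -0.31 (limma adjusted p = 0.18) with overlapping populations, and at 0.02 with that correction. Without replicate 2 of CD104low it passed (-0.47, limma adjusted p = 0.0317). TOMM20L, which overlaps TIMM9 on the other strand, had values of 13.1 to 27 and did not differ detectably (limma adjusted p = 0.918). TOMM34, a cytosolic co-chaperone that carries precursors with HSP70 and HSP90, read 5278, 5110 and 5314 against 6746, 6616 and 6862. The libraries of each population were tight, and it fell by 0.37 (SE 0.06, limma adjusted p = 0.00138).

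The SAM complex inserts barrel proteins, TOMM40 among them, into the outer membrane. MTX2, a metaxin on its cytosolic face, fell by 0.51, and stood at -0.27 once length and GC content were corrected for. The barrel SAMM50 itself was at -0.19 (limma adjusted p = 0.12). Leaving out replicate 2 of CD104low gave SAMM50 a call (-0.27, limma adjusted p = 0.0232). MTX1, the other metaxin, was at -0.05, with 1252, 1261 and 1259 against 1327, 1307 and 1265. Its populations did not overlap, yet this was the smallest difference of any member (95% interval -0.21 to 0.12).

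Small TIM chaperones shield membrane proteins in the space between the membranes, TIMM9 with TIMM10 for carriers and TIMM8A with TIMM13 for another set of substrates. All 6 members fell and none overlapped, beside 21.6% of all genes tested called lower and 26.9% with CD104high wholly below CD104low. TIMM8B (GRCh38 chromosome 11, 112084800 to 112086798) read 3606, 3578 and 3709 in CD104high and 8305, 5953 and 7802 in CD104low. It fell 2-fold, the largest fall past the threshold among the members (-1.0 on the log2 scale, SE 0.11, limma adjusted p = 0.00047). It overlaps SDHD on the opposite strand, and no source used here states whether reads were counted by strand.

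TIMM10 (GRCh38 chromosome 11, 57528463 to 57530803) had 1748, 1558 and 1754 scaled reads in CD104high against 3472, 2752 and 3731 in CD104low. The populations were well apart, with a fall of 0.97 on the log2 scale (SE 0.12, limma adjusted p = 0.000535). Its partner TIMM9 fell by 0.59, from 1392 ± 201 to 915 ± 6.03 (SD, n = 3 each). With the length and GC correction TIMM9 stood at -0.26. TIMM13 read 4686, 4527 and 4485 against 6567, 6424 and 7276 and fell by 0.56 (SE 0.07, limma adjusted p = 0.000524). TIMM8A, whose loss causes a deafness and dystonia syndrome, read 556, 499 and 687 against 938, 804 and 1149. Both populations of TIMM8A were spread out but apart, and it fell by 0.73 (SE 0.16, limma adjusted p = 0.00701). TIMM10B, which docks the chaperones on TIM22, fell least of the 6, by 0.35, and missed the threshold without replicate 1 of CD104low (limma adjusted p = 0.0517).

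Of the TIM22 complex itself, TIMM29, a metazoan subunit, fell by 0.43. TIMM22, the channel for carriers, was at -0.19 (limma adjusted p = 0.16), although its libraries, 685 to 816 against 857 to 910, did not overlap.

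Both members of the disulfide relay fell, beside 21.6% of all genes tested. CHCHD4 (GRCh38 chromosome 3, 14112077 to 14124870), the oxidoreductase that folds cysteine-rich proteins as they arrive, read 1128, 1078 and 1240 in CD104high and 1967, 1799 and 1890 in CD104low. The gap between populations was several times the spread within them, and the fall was 1.64-fold (log2 fold change -0.72, SE 0.08, limma adjusted p = 0.000503). GFER, the sulfhydryl oxidase that recharges CHCHD4, fell by 0.78, from 1290 ± 150 to 758 ± 141 (SD, n = 3 each).

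In the TIM23 channel 4 of 6 members fell, beside 21.6% of all genes tested. TIMM17A, a channel subunit, read 4938, 5146 and 5162 against 7631, 7037 and 7785 and fell by 0.56 (SE 0.06, limma adjusted p = 0.000456). Its close relative TIMM17B read 2341, 1973 and 2671 against 3076, 2388 and 3142. The libraries of TIMM17B overlapped, and its log2 fold change of -0.30 did not pass (limma adjusted p = 0.103). TIMM17B passed without replicate 3 of CD104high (-0.41, limma adjusted p = 0.0384) or replicate 2 of CD104low (-0.43, limma adjusted p = 0.0218).

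TIMM50, the receptor that hands presequences to the channel, read 6557, 6036 and 6399 in CD104high and 9711, 8262 and 9203 in CD104low. The fall of 0.51 (SE 0.07, limma adjusted p = 0.00108) left the populations apart. TIMM23, the central channel subunit, read 5415, 5225 and 5602 against 7815, 6947 and 7838 and fell by 0.47 (SE 0.07, limma adjusted p = 0.00111). TIMM23B, a near-identical copy whose reads can be mixed with those of TIMM23, read 226, 187 and 233 against 256, 236 and 259 and did not pass (-0.22, limma adjusted p = 0.242). TIMM21, which links the channel to the respiratory chain, fell by 0.34. With the length and GC correction TIMM17A was at -0.33, TIMM23 at -0.28 and TIMM21 at -0.18 (limma adjusted p = 0.0729).

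The import motor had the member with the smallest p. GRPEL1 (GRCh38 chromosome 4, 7058906 to 7068197), the nucleotide exchange factor of mitochondrial HSP70, read 2570, 2795 and 2495 in CD104high and 4607, 4544 and 4703 in CD104low. Replicates lay close together in both populations, and the fall was 1.76-fold (log2 fold change -0.82, SE 0.07, limma adjusted p = 0.000212). HSPA9, the HSP70 itself (mortalin), was the most abundant import gene per transcript length in CD104low. It read 23736, 24008 and 22140 against 34371, 33205 and 34299 and fell 1.46-fold (log2 fold change -0.54, SE 0.06, limma adjusted p = 0.000401). TIMM44, which tethers HSPA9 to the channel, read 3673, 3483 and 3385 against 5670, 4930 and 5210. Its populations were apart, with a fall of 0.58 (SE 0.07, limma adjusted p = 0.00061).

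DNAJC19, a J-protein of the inner membrane, fell by 0.60, and once length and GC content were corrected for it was at -0.21 (limma adjusted p = 0.0687). Its own reads are uncertain, since GENCODE 29 names 9 pseudogenes of it. The same holds for TOMM22 with 6, TOMM20 and CHCHD4 with 4 each, TIMM9 with 3 and TIMM8B with 2, and for 6 members with 1 each, HSPA9, TIMM8A, TIMM17B, SAMM50, MTX1 and PMPCA. PAM16, which restrains J-proteins, was near the floor at 9.71 to 37.1 with overlapping populations, and its log2 fold change of -0.95 did not pass (limma adjusted p = 0.0891). Reads of PAM16 can also come from the readthrough gene CORO7-PAM16.

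Of the presequence peptidase, PMPCA, the subunit that binds presequences, fell by 0.27, while PMPCB, the catalytic subunit, was at -0.13 (limma adjusted p = 0.298) and overlapped. TIMMDC1 carries the family name but is an assembly factor of respiratory complex I. It read 2136 to 2229 against 2221 to 2386 and was at -0.08 (95% interval -0.23 to 0.07).

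**Figure D2:**
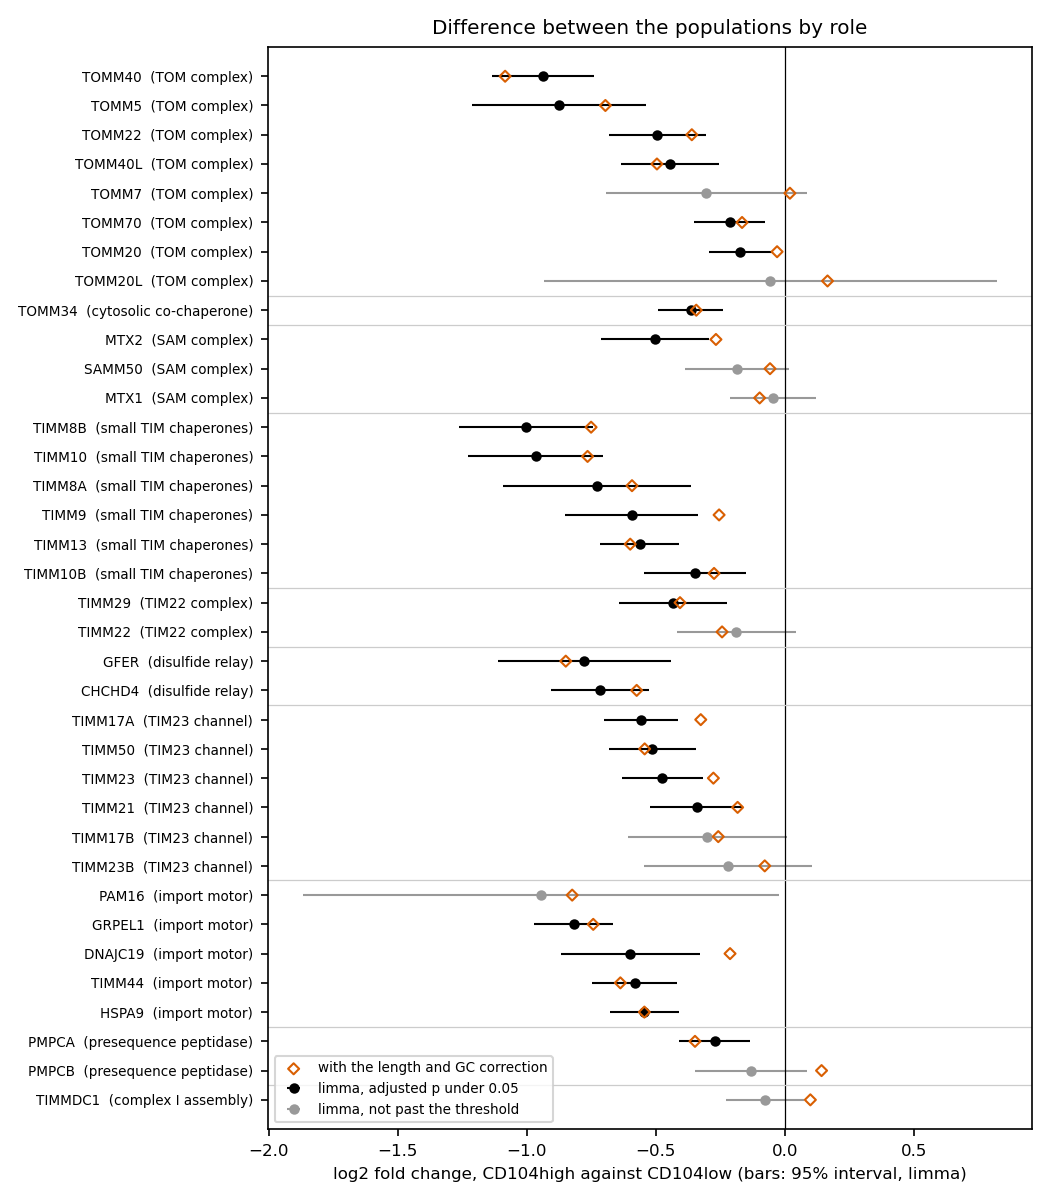
Circles give each import gene's difference in log2 scaled read count, CD104high minus CD104low, with its 95% interval from limma, black where the adjusted p was under 0.05, and diamonds the value after correcting for longest transcript length and GC content. All 36 circles lie below 0, from -1.0 (TIMM8B) to -0.05 (MTX1), and 32 of the 36 diamonds do.

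Import genes are shorter than most, with a median longest transcript of 2433 bases beside 3515 over all genes, and among all genes falls were least frequent in the longest. Of all genes tested, 25.2% of those under 1000 bases, 30.4% of those of 1000 to 2000 bases, 24.6% of those of 2000 to 4000 and 15.4% of those of 4000 or more were called lower. Of the members in these ranges, shortest first, 1 of 4, 8 of 9, 15 of 21 and 2 of 2 were called lower. With the length and GC correction 23 members were called lower, all of them among the 26, against 20.8% of all genes, and the median was -0.34.

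Levels were compared as mean scaled read count per kb of the longest annotated transcript, which need not be the one expressed. In CD104low these ran from 31.3 for TOMM20L to 7184 for HSPA9. TOMM20 (6708), TIMM8B (6366), TOMM7 (6205), TIMM23 (6165) and TOMM40 (6061) followed HSPA9 with little between them. In CD104high TOMM20 was first at 5950, TOMM7 was at 5020, HSPA9 at 4928 and TIMM23 at 4430, while TOMM40 and TIMM8B were at 3167 and 3144. The receptor and the pore of the TOM complex, near each other per kb in CD104low, were thus apart in CD104high. Of 21 members with a mean of at least 1000 per kb over both populations 18 fell, and of the 15 below that 8 did. The same split was not made over all genes tested, of which 21.6% were called lower. PAM16 and TOMM20L, near the floor, are among the 15.

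**Figure D3:**
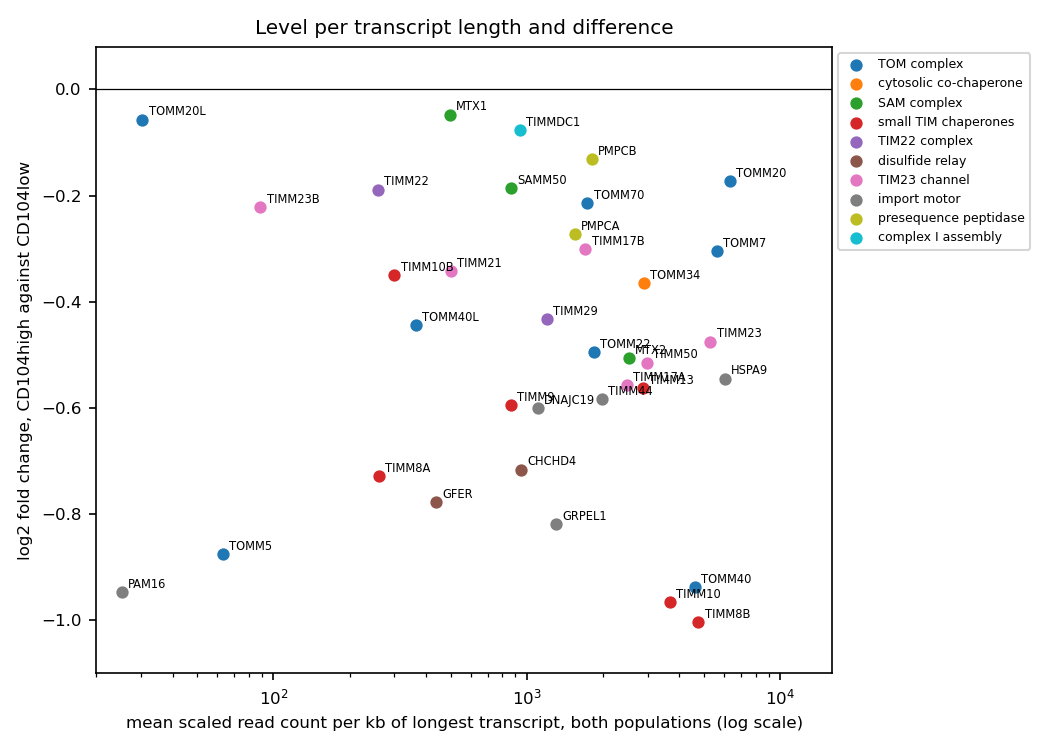
Each point is 1 import gene, with its mean scaled read count per kb of longest transcript over both populations on a log axis and its log2 fold change of CD104high against CD104low. The 6 genes farthest right span nearly the whole range of differences, from -0.17 (TOMM20) to -1.0 (TIMM8B).

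Relatives and partners were compared as the log2 ratio of 2 genes within each library, over 10 pairs. With 3 libraries against 3 the exact two-sided permutation test cannot give a p below 0.1, so no pair could pass 0.05. In 6 of the 10 pairs the populations did not overlap, near the 54.3% of single genes tested whose populations lay apart, above or below. Each had an exact p = 0.1 (0.167 adjusted over the 10 pairs). TIMM10 to TIMM10B differed most, with a ratio of 1.17 ± 0.16 in CD104high and 1.79 ± 0.26 in CD104low (log2, SD, n = 3 each). TOMM40 to TOMM40L was 3.63 ± 0.11 against 4.13 ± 0.06, and MTX1 to MTX2 was -1.40 ± 0.09 against -1.86 ± 0.16. GRPEL1 to GRPEL2, its relative with the same function, was 1.57 ± 0.05 against 1.87 ± 0.16. The pairs TIMM23 to TIMM23B and DNAJC19 to DNAJC15 were also apart, by differences of -0.25 and -0.11. The ratio of TIMM17A to TIMM17B was 1.14 ± 0.22 against 1.39 ± 0.14 with overlap (exact p = 0.3). TIMM8A to TIMM8B, PMPCA to PMPCB and TIMM44 to TIMM50 overlapped as well.

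**Figure D4:**
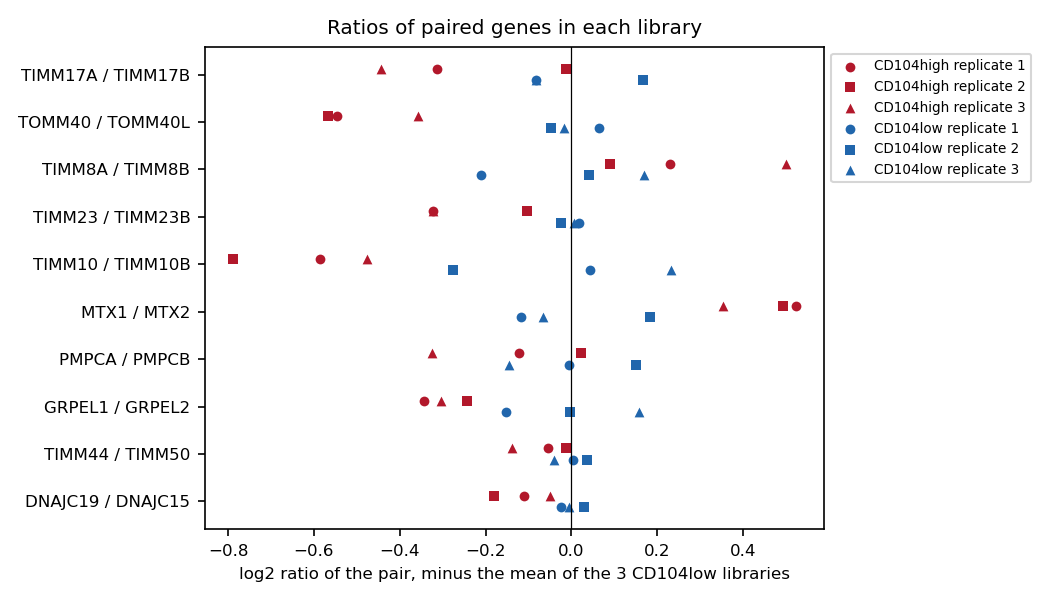
Each point is 1 library's log2 ratio of 2 genes, minus the mean ratio of the 3 CD104low libraries. CD104high (red) is clear of CD104low (blue) in 6 of the 10 pairs, with the widest gap in means for TIMM10 to TIMM10B (-0.62).

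Genes that work beside or depend on the import machinery were read from the same fit as lists, whose members were chosen with earlier results of these data known. Of 11 accessory import factors 6 fell and 0 rose (median -0.19), beside 21.6% falls and 21.8% rises over all genes tested. Leaving out replicate 1 of either population gave 3 falls. Over all genes the falls then numbered 2211 without that of CD104high and 2009 without that of CD104low, in place of 3117. GRPEL2 fell by 0.52 and BCS1L, a translocase of the inner membrane, by 0.49, while the inner membrane insertase OXA1L was at 0.09. Among 19 tested genes of processing, folding and quality control 8 fell and 0 rose (median -0.20), and 5 fell when replicate 1 of either population was left out. TRAP1, the mitochondrial HSP90, averaged 2620 ± 147 against 4464 ± 154 (SD, n = 3 each), a 1.71-fold fall. The chaperonin HSPD1 fell by 0.64 and its lid HSPE1, chosen after its value was seen, by 1.09. The proteases SPG7 (0.35) and OMA1 (0.18) had the smallest p of the list's genes with a higher mean in CD104high, and neither passed.

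Substrates of the disulfide relay with twin cysteine motifs gave 13 falls and 0 rises among 17 tested genes, beside 21.6% and 21.8% of all genes. The median was -0.63, or -0.36 with the length and GC correction. UQCRH, a complex III subunit, averaged 5648 ± 144 against 9136 ± 548 (SD, n = 3 each), a 1.62-fold fall. COA4, an assembly factor, fell by 0.70. CHCHD10, chosen after its value was seen, had the lowest log2 fold change of the list, at -1.21, and the copper chaperone factor COX19 was at 0.03. The SLC25 carriers were taken by symbol, and not all of them need be substrates of the TIM22 route. They went both ways, with 13 falls and 6 rises among 40 tested genes, beside 21.6% and 21.8% of all genes. Their median was -0.08. SLC25A33, a pyrimidine nucleotide carrier, fell by 1.15 and the adenine nucleotide carrier SLC25A4 by 0.51, while SLC25A45 rose by 1.15 and the citrate carrier SLC25A1 by 0.39. The carriers gave fewer calls when replicate 1 of either population was left out, with 8 falls and 2 rises each time. Rises numbered 3 when replicate 2 of CD104high or replicate 3 of CD104low was left out.

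Regulators of mitochondrial biogenesis gave 10 falls and 1 rise among 13 (median -0.36). MYC, a transcription factor of growth, fell 1.59-fold, from 8543 ± 584 to 5373 ± 359, and TFAM, the packaging factor of mitochondrial DNA, 1.55-fold, from 7713 ± 706 to 4955 ± 83 (SD, n = 3 each). The rise was PPARGC1A, the coactivator PGC-1 alpha, from 56.2 ± 7.99 to 143 ± 55.9 (SD, n = 3 each), or by 1.27 on the log2 scale (SE 0.29, limma adjusted p = 0.00837). TFB1M was at 0.01. NRF1 and GABPA, chosen after their values were seen because their motifs were searched, were at -0.31 and -0.0062 (limma adjusted p = 0.00809 and 0.958). GABPB1, also chosen after its value was seen, fell by 0.67. All genes tested gave 21.6% falls and 21.8% rises beside these counts.

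**Figure D5:**
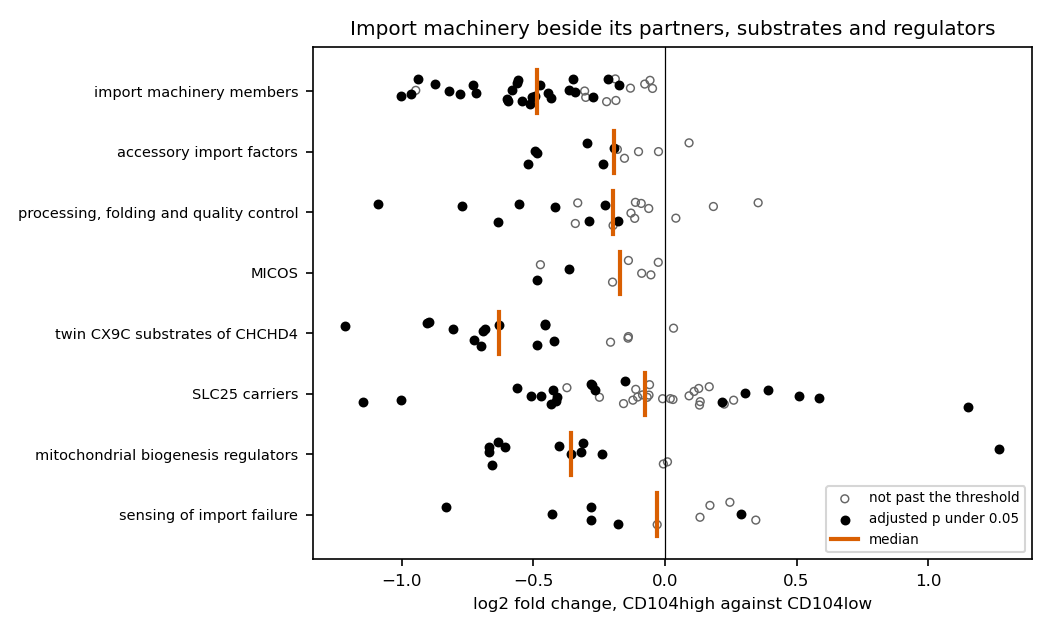
Each point is 1 tested gene's log2 fold change of CD104high against CD104low, filled where the limma adjusted p was under 0.05, with a bar at the median of each list. All import machinery genes lie left of 0 with a median of -0.48, the twin cysteine substrates have a median of -0.63, and the carriers lie on both sides with a median of -0.08.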

How the data were processed

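Per the submitters' processing notes, FastQC, Salmon 1.3.0 and DESeq2 were used with the build GRCh38 (hg38); their order, annotation, filters and model are not given here. The authors deposited, per the file headers, 1 row per gene holding the signal (scaled reads) of every library and their own comparison as a log2 fold change, standard error, raw p-value and adjusted p. Every signal value was a whole multiple of 1 step per library (within 0.01 for 100% of values), as counts divided by a size factor would be. The reads recovered this way totalled 49791498 to 60069719 per library.

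Values were tested with limma 3.58.1 (R 4.3.3) with an intensity trend on log2(value + 1), which understates changes of low genes. Genes needed 10 or more in 3 or more libraries, population was the only term, and the threshold was a Benjamini-Hochberg adjusted p of 0.05 over all genes tested. The script was tested on simulated data. Alternatives were other pseudocounts, filters and scalings, limma without the trend, edgeR 4.0.16 and DESeq2 1.42.0 on recovered reads, a replicate block, leaving out each library, and a spline correction of each library for longest transcript length and GC content (GENCODE 29, 99.8% of genes matched). The members, pairs and lists were chosen with earlier results of these data known. All members are given; values by library are printed for the 12 members with the smallest p, for 4 pairs of relatives and for a few others, and of each list up to 4 genes are named, by smallest p among its rises and among its falls, plus any said to be chosen after its value was seen.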

Additional observations from a re-analysis of the deposited data

How the results depend on the processing

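Over all 18 alternatives the members called lower numbered 23 to 29, and 21 of the 26 were called lower in every one. The median of all genes moved by less than 0.1 (log2) under each scaling. The labels do not say whether samples with the same replicate number were paired. Deviations of same-numbered samples from their population means correlated at 0.0836, 0.359 and 0.324 for replicates 1 to 3. Each sample correlated best with its own number, weakly for replicate 1. Pairing was thus left unsettled, and the main fit holds no replicate block. With the replicate block the members called lower were 29, the 26 and TOMM7, SAMM50 and TIMM17B (limma adjusted p = 0.00184, 0.03 and 0.0025), all genes called lower 3829, processing and folding genes higher 1 (SPG7), and genes sensing import failure higher 4, UBQLN2 among them. With the length and GC correction the members' median was -0.34, also with the block, where 1 member, PMPCB, was higher (0.14, limma adjusted p = 0.0467), MICOS gave 4 falls, biogenesis regulators 2 rises and sensing genes 3 rises. Sensing genes gave 3 falls with that correction, with the block added, and without the trend, where MICOS gave 1. The cause was not tested.

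Leaving out 1 library gave 2088 to 3192 genes higher and 2009 to 3198 lower over all genes, 0 members higher and 23 to 29 lower, and a members' median of -0.55 to -0.44. Falls were 3 to 8 for accessory factors, 5 to 9 for processing (0 to 1 rises), 1 to 4 for MICOS, 3 to 5 for sensing (0 to 1 rises) and 8 to 12 for carriers (2 to 7 rises). No pair ratio changed sign with a library left out or with a pseudocount of 5.

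Differences that changed sign were not past the threshold before or after, except that of PMPCB. With the length and GC correction, and the same with the block, TOMM7 was at 0.0186, TOMM20L at 0.16, TIMMDC1 at 0.10, PMPCB at 0.14, COX19 at -0.0847 and CD44 at -0.0420. With 1 library left out TOMM20L ranged from -0.29 to 0.20, COX19 from -0.0310 to 0.0945, TFB1M from -0.0296 to 0.0491, and CD44 from -0.0265 to 0.15. Quantile normalization gave OMA1 -0.0115, COX19 -0.0158 and TFB1M -0.17. TFB1M was at -0.00842 with TMM scaling and -0.00743 in edgeR. Depth limited PAM16 and TOMM20L, which had under 40 reads per library.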

Other observations

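Genes that sense or clear failed import went both ways. Of 11 tested, 5 fell and 1 rose, beside 21.6% falls and 21.8% rises over all genes tested. The median log2 fold change of the 11 was -0.03. DDIT3, a transcription factor of the stress response, fell by 0.83, from 386 ± 51.7 to 216 ± 17.2, and ATAD1, which extracts stalled proteins from the outer membrane, fell by 0.43, from 5888 ± 75.5 to 4380 ± 218 (SD, n = 3 each). USP30, a deubiquitinase of the outer membrane, rose by 0.29 (limma adjusted p = 0.028). It did not pass without replicate 1 or 2 of CD104high or replicate 1 or 3 of CD104low (limma adjusted p = 0.0545 to 0.102). UBQLN2, a ubiquilin that binds misplaced membrane proteins, was at 0.25 (limma adjusted p = 0.0898), and passed under quantile normalization (limma adjusted p = 0.0329) and on leaving out replicate 3 of CD104low (limma adjusted p = 0.0413). The list's falls numbered 3 without replicate 1 or 2 of CD104high or replicate 1 or 3 of CD104low.

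In the MICOS complex, which shapes the inner membrane, 2 of 8 genes fell and 0 rose, a share near the 21.6% of all genes called lower, with a median of -0.17. MICOS13 fell by 0.49, and CHCHD3 by 0.36. Once length and GC content were corrected for CHCHD3 was at -0.18 (limma adjusted p = 0.111). Its call was also lost on leaving out replicate 2 of CD104high, or replicate 1 or 3 of CD104low (limma adjusted p = 0.0628 to 0.0768). The complex gave 1 fall on leaving out any of those 3 libraries and 4 on leaving out replicate 3 of CD104high.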
